A study of Arabidopsis thaliana with 18 samples.

Results

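The genes described here are those whose signal stood lower in induced than in not induced seedlings at all 3 times measured, namely 6, 12 and 24 h. They are 100 of the 22746 probe sets on the array that are not controls. A probe set was taken when its mean signal was at least 20 in each not induced group and its difference of mean log2 signal, induced minus not induced, was -0.6 or lower at each time. Of the probe sets, 13279 had the signal minimum and 106 met the whole rule, from which 6 were left out by name (the expansin genes of the EXPA family, sks15, AT4G26010, AT5G64120 and AT5G66390). The members were therefore selected on their induction differences, and these differences are given below as a description, with no test. Among the members 49 have 1 gene in the annotation, 2 match several genes and 49 have no gene there.

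All samples were Arabidopsis thaliana seedlings of accession Col-0, taken whole, labelled as a T-DNA line and carrying DUO1 in pMDC7, a vector that expresses its insert when oestradiol is given. DUO1 belongs to the MYB transcription factors and normally acts in male germ cells of pollen, so in a seedling it is out of place. Plants grew for 12 days in constant light on plates with hygromycin before treatment, and RNA was hybridised to ATH1 arrays. The 6 groups were not induced and induced plants at 6 h, at 12 h and at 24 h, with 3 arrays in each. The labels do not say whether the plants come from 1 transgenic line or how many plants each sample pooled. Every group carried the construct and none had the inducer without it, so DUO1 and the inducer cannot be told apart as the source of a difference.

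The members with a gene include class III peroxidases, proteins of the cell wall and secreted proteins. Class III peroxidases are secreted haem enzymes that use hydrogen peroxide to oxidise or cross-link wall polymers, and many of them are expressed mainly in roots. Xyloglucan endotransglucosylases, endoglucanases, pectin methylesterases and extensins loosen, trim or reinforce the wall, and several of their genes mark the growing root hair. Jacalin lectins, chitinases, lipid transfer proteins and protease inhibitors are secreted or stored proteins often linked to defence.

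Array medians ran from 34.3 to 39.5. The background level of an array, taken as its highest signal among 27 controls for transcripts that were not spiked in, was 3.30 to 10.1, and 72.3% to 83.6% of probe sets lay above it. Genes of leaf and root were both bright: LHCB4.1, a light-harvesting protein, had a mean of 5078 and PYK10, a beta-glucosidase abundant in roots, one of 3899 without induction at 6 h. The 18 hybridisation controls averaged 8.49 to 8.80 (log2) on the not induced 6 h arrays and 7.72 to 8.27 on the later not induced arrays, with no overlap. Since no label states that the 3 arrays of a group came from separate cultures, the p-values cover only the spread among the arrays themselves.

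The members were moderately expressed without induction and mostly dim with it. Their median group mean was 61.3, 56.0 and 63.8 at 6, 12 and 24 h in not induced plants and 28.7, 20.0 and 19.3 in induced plants. The median over all probe sets with the signal minimum was 90.3, 94.0 and 94.0 without induction and 94.1, 96.2 and 96.4 with it. The median induction difference of the members was -0.94 at 6 h, -1.43 at 12 h and -1.78 at 24 h on the log2 scale. These medians are 1.92, 2.70 and 3.43 times lower, against 0.04, 0.04 and 0.02 on the log2 scale for all 22746 probe sets. The median SD between replicate arrays of a group was 0.29, 0.26 and 0.29 at the 3 times. At 24 h 86 members stood at a difference of -1 or lower, compared with 80 at 12 h and 42 at 6 h. Since the samples are whole plants, fewer cells of a type and less RNA per cell cannot be told apart.

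**Figure D1:**
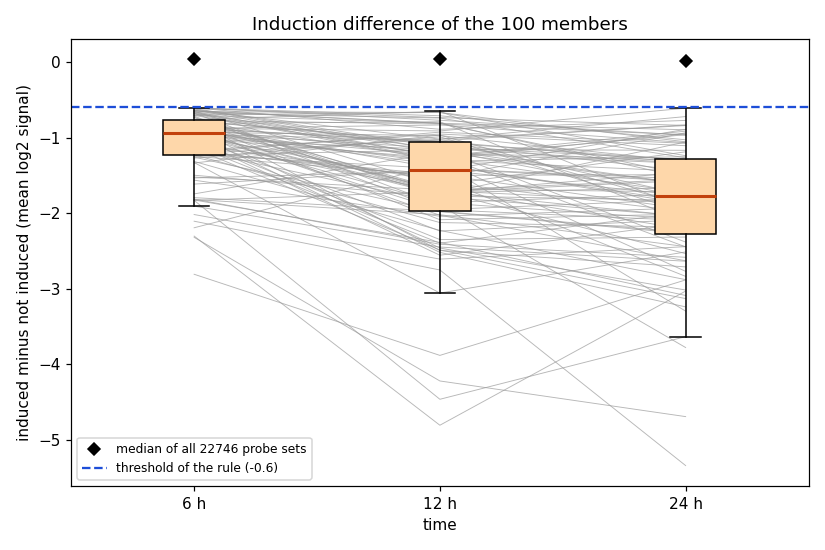
Induced minus not induced difference of mean log2 signal for each of the 100 members (grey lines) at 6, 12 and 24 h. Boxes show the median and the quartiles, whiskers reach 1.5 times the quartile range, values at background are drawn as computed, diamonds are the median of all 22746 probe sets, and the dashed line is the threshold of the rule; the member median moves from -0.94 to -1.78.

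The difference was lowest at 24 h for 65 members, at 12 h for 29 and at 6 h for 6. For 56 members it was lower at each later time, and for 91 it was lower at 24 h than at 6 h. The time closest to the threshold was 6 h for 82 members. Just inside the threshold lay AT2G30930, for which no role is given, at -0.60, -0.77 and -0.97, AT1G17860, of the Kunitz trypsin inhibitor family, at -0.61, -0.89 and -0.77, and AT1G14960, of the Bet v I family, at -0.61, -0.71 and -1.03. Just outside lay 258184_at, which has no gene, at -0.66, -0.598 and -0.89, AT4G22470 at -0.59, -1.35 and -1.996, and 250437_at, which has no gene, at -0.59, -0.88 and -1.12.

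All 3 induced arrays lay below all 3 not induced arrays for 85 members at 6 h, 96 at 12 h and 98 at 24 h, and for 82 at all times. Over all probe sets 6.02% at 6 h, 9.88% at 12 h and 12.1% at 24 h were separated in this way. The share separated at all 3 times was not counted over all probe sets. Because the rule used the same contrast, nothing is read from the excess. No not induced array of a member was at background at any time. At least 1 induced array was at background for 12 members at 6 h, 14 at 12 h and 23 at 24 h. All 3 induced arrays were at background for AT3G49960 and 266967_at at 12 h and for AT1G54890 at 24 h, and a lower bound is given for these in place of a fold. With these 3 values at their bounds, each member and group median given here is unchanged. Orders by mean difference use the values as computed.

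Few marker genes of the plant's organs could be matched to a probe set. The summed signal of the root abundant genes PYK10 and PRX37, 2 of 9 listed, was 3692 to 4169 without induction and 3651 to 4385 with it at 6 h, and 4161 to 4255 and 3480 to 4161 at 12 h. At 24 h it was 3860 to 4100.2 without induction and 3200.3 to 3404 with it, lower on every induced array. PYK10, with a mean of 3899 against 50.3 for PRX37 without induction at 6 h, makes up nearly all of this sum. By itself PYK10 differed by -0.27 on the log2 scale at 24 h (limma, adjusted p = 0.208), against the member median of -1.78. The summed signal of the photosynthesis genes LHCB4.1, LHCB4.2 and RCA, 3 of 13 listed, overlapped between the conditions at every time, and none of them passed the test. The part of root amount in the members' differences was not tested beyond these values.

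Class III peroxidases and cell wall proteins were the most numerous groups among the 49 members with 1 gene, with 9 members each. The grouping by role was made after the values were seen, and leaves out the 49 members with no gene and the 2 with several. The shares of these families over all probe sets were not counted, so nothing is read from the numbers. The peroxidases had median differences of -1.21, -1.97 and -1.99 at 6, 12 and 24 h. AT3G49960 had the lowest mean difference of the 9. Without induction AT3G49960 read 32.6, 20.4 and 28.5 at 6 h, 32.6, 22.2 and 18.0 at 12 h and 36.9, 32.0 and 38.5 at 24 h. With induction AT3G49960 read 2.79, 8.87 and 6.19 at 6 h, 1.28, 0.613 and 2.57 at 12 h and 0.474, 13.6 and 0.411 at 24 h. The 6 h arrays already lie well apart, and 1 induced array at 24 h stands far above the other two, which are at background. The difference was -2.32 on the log2 scale at 6 h, and the 12 h signal, measured against the background level, was at least 4.24-fold lower.

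No array of AT2G18980 was at background. In not induced plants AT2G18980 gave 223, 166 and 205 at 6 h, 254, 203 and 256 at 12 h and 329.6, 346 and 346 at 24 h. In induced plants AT2G18980 gave 56.2, 63.3 and 49.2 at 6 h, 44.4, 47.5 and 41.7 at 12 h and 56.2, 62.0 and 52.7 at 24 h. The induced signals stayed between 41.7 and 63.3 at all times, while the not induced signals were higher at 24 h than at 6 h. The induced means were lower by 3.51, 5.31 and 5.99 times at 6, 12 and 24 h. AT4G30170 too was separated between the conditions at each time. Signals of AT4G30170 without induction were 177, 148 and 156 at 6 h, 162, 169.6 and 216 at 12 h and 274, 234 and 236 at 24 h. Signals of AT4G30170 after induction were 54.2, 34.2 and 52.8 at 6 h, 41.6, 44.6 and 52.8 at 12 h and 37.7, 85.8 and 43.4 at 24 h. The second induced array at 24 h stood above the others of its group, and still below every not induced array. The induced signal was 3.47, 3.93 and 4.77 times lower.

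AT3G01190 began with a small difference that was larger at each later time. Without induction AT3G01190 read 125, 108 and 108 at 6 h, 132, 97.9 and 197 at 12 h and 230.1, 264 and 272 at 24 h. With induction AT3G01190 read 62.4, 60.8 and 53.5 at 6 h, 26.9, 17.3 and 29.2 at 12 h and 36.1, 34.6 and 15.7 at 24 h. Not induced plants were highest at 24 h and induced plants were highest at 6 h. The induction difference was -0.95, -2.52 and -3.24 on the log2 scale, or 1.93, 5.73 and 9.44 times lower. AT1G30870 had its lowest induced signals at 12 h. In not induced plants AT1G30870 gave 98.0, 74.6 and 125 at 6 h, 128, 113 and 111 at 12 h and 149, 214 and 189 at 24 h. In induced plants AT1G30870 gave 42.5, 53.4 and 40.3 at 6 h, 24.7, 16.5 and 26.9 at 12 h and 44.6, 57.1 and 37.7 at 24 h. Its groups did not overlap, and the difference was -1.10, -2.40 and -1.99.

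The remaining 4 peroxidases had mean differences nearer to 0 than the 14 members with the lowest. AT4G11290 stood at -1.25, -1.50 and -1.49 and AT2G37130 at -0.88, -1.05 and -1.75. AT5G17820 stood at -0.94, -1.14 and -1.34, with a signal that was higher at 24 h than at 6 h in both conditions. AT5G39580 stood at -1.21, -1.02 and -0.72, the 1 peroxidase whose difference was nearer to 0 at each later time, and its arrays overlapped between the groups at 24 h. PRX37, another peroxidase of this family that is no member, had means of 50.3, 59.1 and 56.9 without induction and 42.3, 53.0 and 51.4 with it, and did not pass the test at any time (limma, adjusted p = 0.655, 0.706 and 0.725).

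**Figure D2:**
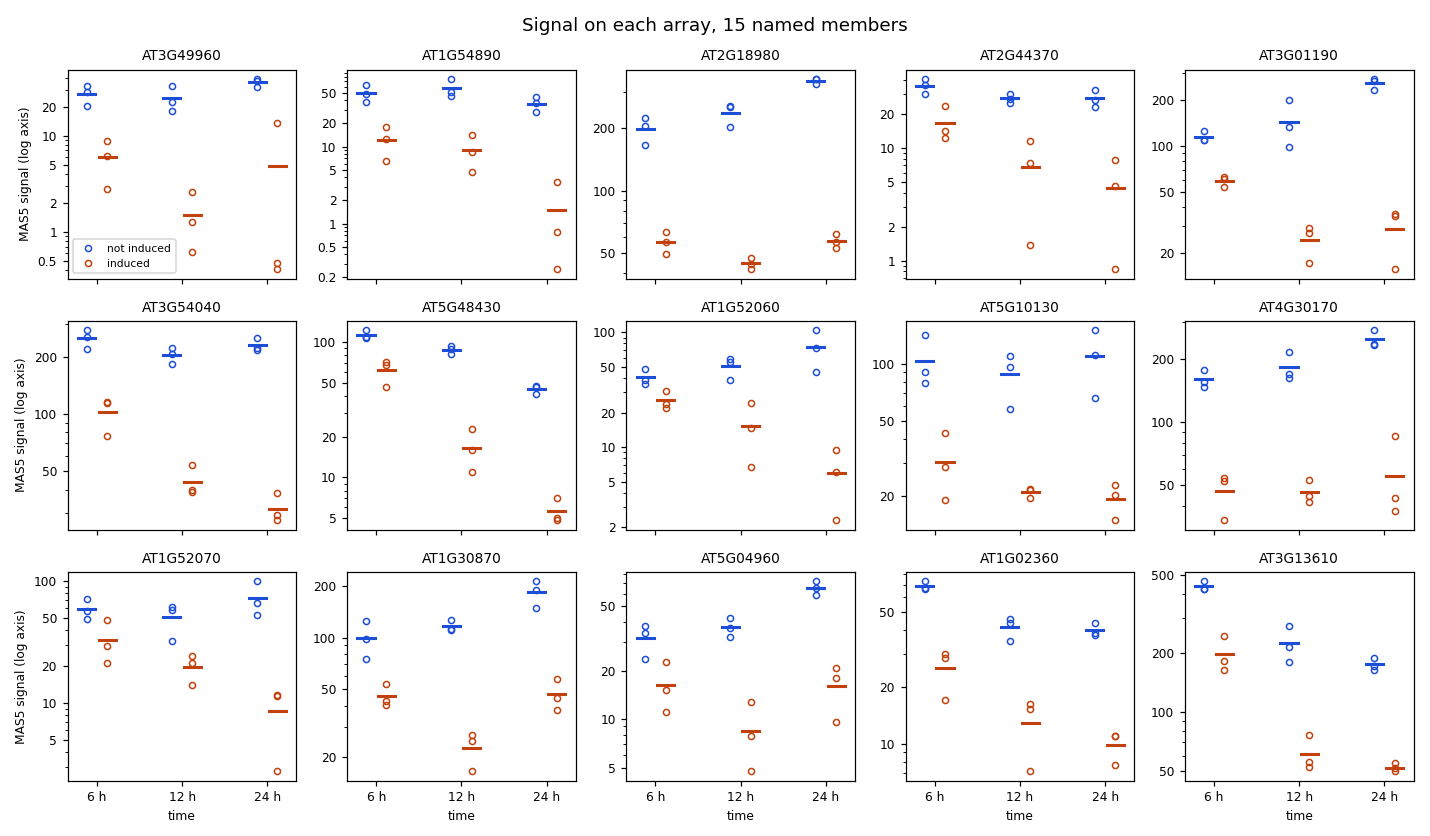
Signal on each of the 18 arrays (open circles, log axis, a range of its own per panel) at 6, 12 and 24 h for the 14 members with 1 gene and the lowest mean difference and for AT3G13610, without induction (blue) and with it (red). Horizontal marks are the means of 3 arrays; in every panel the induced arrays lie below the not induced arrays at each time.

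The 9 cell wall members had median differences of -0.94, -1.70 and -1.61, and the groups were separated at all times for 8 of them. AT5G10130, of the Ole e 1 and extensin family, was the lowest in mean difference. Signals of AT5G10130 without induction were 142, 79.4 and 90.5 at 6 h, 96.2, 57.5 and 110.3 at 12 h and 150.4, 66.0 and 111 at 24 h. Signals of AT5G10130 after induction were 19.0, 42.9 and 28.5 at 6 h, 21.5, 19.6 and 21.7 at 12 h and 20.2, 22.9 and 14.9 at 24 h. The not induced arrays spread widely, with replicate 2 lowest at each time, and every induced array lay below them. The induced signal was 3.53, 4.05 and 5.43 times lower at 6, 12 and 24 h. AT5G04960, a pectin methylesterase with an inhibitor domain, had 1 induced array at background at 12 h. Without induction AT5G04960 read 34.1, 23.7 and 37.6 at 6 h, 32.3, 36.5 and 42.3 at 12 h and 65.1, 71.7 and 58.5 at 24 h. With induction AT5G04960 read 22.5, 11.1 and 15.2 at 6 h, 7.91, 4.75 and 12.7 at 12 h and 9.62, 20.7 and 18.0 at 24 h. The closest pair of opposite arrays was at 6 h, when the highest induced signal was just under the lowest not induced one.

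XTH18, a xyloglucan endotransglucosylase, stood at -0.94, -1.75 and -1.06, with overlapping arrays at 6 h. GH9C1, an endoglucanase, stood at -0.73, -1.77 and -1.83 and sks16, of the SKU5-like multicopper oxidase family, at -0.98, -1.59 and -1.98. The other 4 were AT2G47540, of the Ole e 1 and extensin family, at -1.52, -1.70 and -1.55, the extensin-like AT4G08410 at -0.89, -1.21 and -1.34, the proline-rich AT5G12880 at -0.62, -1.16 and -1.61 and the germin-like AT1G18980 at -0.84, -1.41 and -1.58.

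The 8 defence and secreted members had median differences of -0.90, -1.56 and -2.66, the lowest median of any role group at 24 h, and the groups were separated at all times for all 8. AT3G54040, of the PAR1 family, was above background on every array. In not induced plants AT3G54040 gave 277, 220.2 and 255 at 6 h, 223, 207 and 184 at 12 h and 224, 253 and 219 at 24 h. In induced plants AT3G54040 gave 114, 116 and 76.7 at 6 h, 39.6, 39.0 and 53.6 at 12 h and 29.5, 27.6 and 38.2 at 24 h. The induced signals were lower at each later time, while the not induced signals stayed between 184 and 277. AT5G48430, an aspartyl protease, had signals that were lower at later times in both conditions. Signals of AT5G48430 without induction were 122, 108 and 107 at 6 h, 93.1, 80.7 and 87.8 at 12 h and 41.4, 46.1 and 47.5 at 24 h. Signals of AT5G48430 after induction were 67.5, 70.9 and 46.3 at 6 h, 16.0, 10.9 and 22.7 at 12 h and 4.84, 5.03 and 7.03 at 24 h. At 24 h 2 of its 3 induced arrays were at background, and the difference was -0.89, -2.46 and -3.02 at the 3 times.

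The jacalin lectin genes AT1G52060 and AT1G52070 are neighbours on the chromosome, with no annotated gene between them, and their sequences are related, so probe sets may share signal. Without induction AT1G52060 read 48.3, 38.4 and 35.3 at 6 h, 59.0, 38.1 and 55.5 at 12 h and 104, 45.0 and 73.7 at 24 h. With induction AT1G52060 read 23.7, 30.8 and 22.1 at 6 h, 6.74, 24.5 and 14.8 at 12 h and 2.31, 6.10 and 9.52 at 24 h. The 6 h groups lie close together and the 24 h groups far apart, with 2 induced arrays at background. In not induced plants AT1G52070 gave 71.3, 56.4 and 48.7 at 6 h, 57.9, 32.5 and 61.6 at 12 h and 99.7, 52.7 and 66.5 at 24 h. In induced plants AT1G52070 gave 21.2, 47.5 and 29.2 at 6 h, 14.1, 21.2 and 24.5 at 12 h and 11.7, 2.77 and 11.4 at 24 h. Its groups too lie closest at 6 h and farthest apart at 24 h, and the differences of AT1G52060 and AT1G52070 were -0.67, -1.89 and -3.78 and -0.91, -1.33 and -3.29 at 6, 12 and 24 h. AT1G02360, of the chitinase family, had differences of -1.50, -1.78 and -2.04. Signals of AT1G02360 without induction were 67.4, 66.4 and 72.9 at 6 h, 46.1, 44.0 and 35.3 at 12 h and 37.7, 43.9 and 38.7 at 24 h. Signals of AT1G02360 after induction were 30.1, 28.4 and 17.0 at 6 h, 16.2, 7.13 and 15.2 at 12 h and 7.66, 11.0 and 10.9 at 24 h. Its signals at 12 and 24 h were below those at 6 h in both conditions, and the groups did not overlap. The lipid transfer protein genes AT4G12490 and AT4G22460 stood at -0.63, -1.20 and -1.30 and at -0.95, -1.23 and -2.44. AT1G17860 stood just inside the threshold, with induced means of 323 ± 54.1, 219 ± 18.7 and 268 ± 67.2 (SD, n = 3).

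The 7 members of metabolism and conjugation had median differences of -0.93, -1.16 and -1.31. AT3G13610 encodes F6'H1, the feruloyl-CoA hydroxylase that makes the coumarin scopoletin, which roots secrete when iron is short. Without induction AT3G13610 read 462, 421 and 421 at 6 h, 275, 215 and 180.0 at 12 h and 171, 189 and 164 at 24 h. With induction AT3G13610 read 183, 242 and 164 at 6 h, 55.5, 52.6 and 76.2 at 12 h and 49.98, 51.7 and 54.7 at 24 h. Its groups did not overlap at any time, and the difference was -1.17, -1.86 and -1.74. The other iron uptake genes matched to a probe set were PYE and BHLH101, which encode transcription factors of the iron response. Neither passed the test at any time. PYE had means of 43.9 and 43.3 at 6 h without and with induction and 75.6 and 83.7 at 24 h. BHLH101 had means of 2.12 and 4.81 at 6 h, 5.06 and 8.84 at 12 h and 25.3 and 26.3 at 24 h. Its means at 6 and 12 h lay near the array background levels of 3.30 to 10.1, so its result there says little. UGT76B1, a glycosyltransferase of defence metabolites, stood at -0.66, -1.25 and -0.96, with overlapping arrays at 6 h. GH3.17, which conjugates auxin to amino acids, stood at -0.64, -0.81 and -0.90. The berberine bridge enzyme-like AT1G30700 stood at -0.90, -1.68 and -1.72, AT2G45750, of a methyltransferase family, at -1.20, -0.93 and -1.08, the fatty acid elongase-like AT3G06460 at -1.01, -1.16 and -1.78 and the galactose mutarotase-like AT3G01260 at -0.93, -0.97 and -1.31.

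The 7 transport and signalling members had median differences of -0.81, -1.63 and -2.09. AT2G44370, which encodes a protein with a C1 domain, was the lowest of them. In not induced plants AT2G44370 gave 40.5, 29.9 and 35.6 at 6 h, 24.8, 27.2 and 29.9 at 12 h and 22.9, 32.7 and 26.5 at 24 h. In induced plants AT2G44370 gave 12.2, 23.4 and 14.0 at 6 h, 7.29, 1.37 and 11.5 at 12 h and 7.72, 0.839 and 4.56 at 24 h. Induced arrays at background numbered 1 at 12 h and 2 at 24 h, and the difference was -1.14, -2.49 and -3.13. The glutaredoxin AT4G15680 stood at -0.95, -1.30 and -2.77, the MATE transporter AT3G23550 at -0.71, -1.95 and -2.09 and AT3G46280, which is related to protein kinases, at -0.93, -1.95 and -1.82. AT2G42350, of a RING ubiquitin ligase family, stood at -0.81, -0.79 and -2.12, AT1G52200, of the PLAC8 family, at -0.65, -1.63 and -1.19 and AT1G33340, with an ENTH/ANTH domain, at -0.65, -0.81 and -1.49. AT3G23550, AT1G52200 and AT1G33340 had overlapping arrays at 6 h and separated arrays at 12 and 24 h.

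The 5 members like late embryogenesis abundant proteins had median differences of -0.91, -1.19 and -1.84. AT1G54890 had the lowest mean difference of the 5. Signals of AT1G54890 without induction were 63.3, 37.3 and 47.4 at 6 h, 51.0, 44.9 and 75.0 at 12 h and 36.4, 27.8 and 43.7 at 24 h. Signals of AT1G54890 after induction were 17.8, 12.4 and 6.403 at 6 h, 14.2, 4.71 and 8.46 at 12 h and 0.766, 3.41 and 0.256 at 24 h. The difference on the log2 scale was -2.11 at 6 h and -2.75 at 12 h, when 1 induced array was at background. At 24 h every induced array was at background, so the signal was at least 5.50-fold lower. AT5G60520 and AT5G60530 are neighbours with no annotated gene between them, and stood at -1.74, -1.19 and -1.62 and at -0.91, -1.36 and -1.84. AT3G19430 stood at -0.76, -0.65 and -1.94, with overlap at 6 and 12 h, and AT1G65690 at -0.61, -0.73 and -0.84, with overlap at 6 h. The 4 members placed in no role group were AT1G14960, AT2G30930, AT3G50900 and AT3G18560, with median differences of -0.63, -0.74 and -1.04. Arrays of AT3G50900 overlapped between the groups at 6 h.

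**Figure D3:**
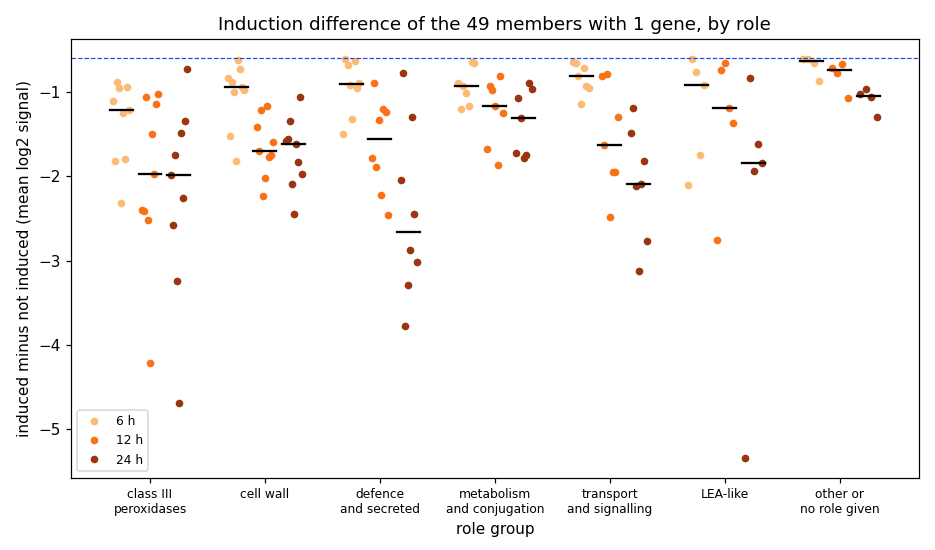
Induced minus not induced difference of mean log2 signal at 6, 12 and 24 h for the 49 members with 1 gene, by role group. Each point is 1 member, with values at background drawn as computed, black marks are medians and the dashed line is the threshold of the rule; the lowest median at 24 h is that of the defence and secreted group, -2.66.

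The 49 members with no gene had median differences of -0.97, -1.49 and -1.86, close to the -0.93, -1.36 and -1.75 of those with 1 gene. The lowest of them in mean difference were 247871_at and 266967_at. Without induction 247871_at read 31.7, 24.5 and 42.2 at 6 h, 33.6, 28.2 and 20.2 at 12 h and 27.1, 27.8 and 31.3 at 24 h. With induction 247871_at read 7.21, 6.70 and 5.65 at 6 h, 5.59, 0.391 and 0.402 at 12 h and 1.05, 4.55 and 9.05 at 24 h. Induced arrays at background numbered 1 at 6 h, 2 at 12 h and 2 at 24 h, and the difference was -2.30, -4.80 and -3.03. In not induced plants 266967_at gave 59.3, 47.1 and 50.9 at 6 h, 52.2, 46.1 and 51.8 at 12 h and 59.6, 71.5 and 80.6 at 24 h. In induced plants 266967_at gave 15.2, 20.5 and 10.2 at 6 h, 2.21, 4.12 and 1.28 at 12 h and 3.76, 5.96 and 8.03 at 24 h. All 3 induced arrays were at background at 12 h, so the signal was at least 9.01-fold lower then. The probe sets that match several genes, 254820_s_at and 260950_s_at, stood at -1.91, -2.45 and -2.63 and at -1.01, -1.27 and -1.73.

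The rule was also applied without 1 replicate number at a time, and the induction difference was then read on the arrays left out. Those arrays did not pick the probe sets, but the rule and the names left out were set with earlier results of these data known. It found 106 probe sets without replicate 1, 115 without replicate 2 and 92 without replicate 3, of which 80, 85 and 77 are among the 100 members. On the arrays left out the median difference of these probe sets was -0.72, -0.63 and -1.09 at 6 h. It was -1.39, -1.37 and -1.40 at 12 h and -1.64, -1.58 and -1.71 at 24 h. The median over all probe sets with the signal minimum lay between 0.003 and 0.042 on the same arrays. Below 0 lay 89 of 106, 103 of 115 and 88 of 92 at 6 h, compared with 106 of 106, 114 of 115 and 92 of 92 at 24 h, and between 44.6% and 49.6% of all with the minimum. Signal was lower in induced plants on the arrays left out too, with the 6 h difference nearer to 0 there for replicates 1 and 2. The labels do not say whether these arrays came from separate cultures, so these values cover only the spread among arrays. They are given as a description and not as support for the rule.

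**Figure D4:**
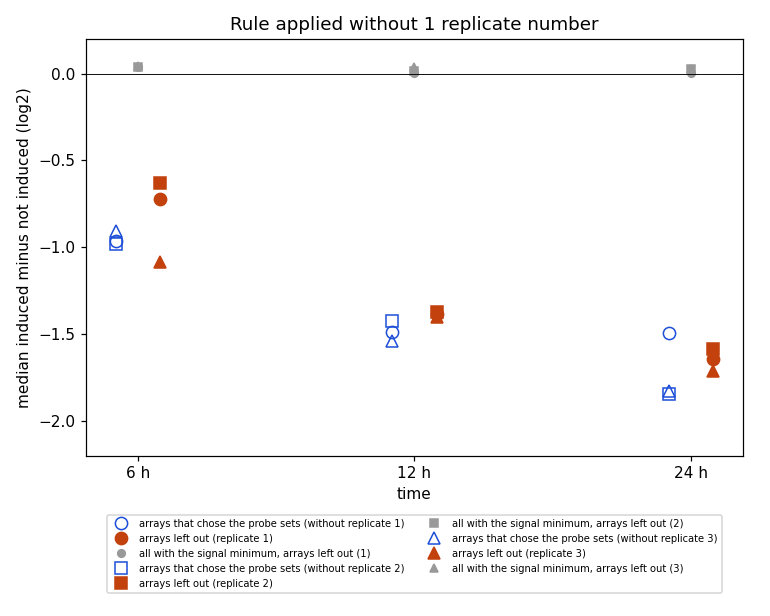
Median induced minus not induced log2 difference at 6, 12 and 24 h of the probe sets found without replicate 1 (circles), 2 (squares) or 3 (triangles). Open blue symbols are the arrays that chose the probe sets, filled red symbols the arrays left out, and grey symbols all probe sets with the signal minimum on the arrays left out; red symbols lie between -0.63 and -1.71.

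The change with time within 1 condition was not part of the rule and was tested with limma over all probe sets. The same arrays entered the rule, and their signals at each time helped to choose the members. Nothing is read from the members' counts or median changes against those of all probe sets. Without induction, members changed in both directions. Between 6 and 12 h 2 members rose and 1 fell, against 1.44% and 1.47% of all probe sets. F6'H1 transcript (AT3G13610) fell from 435 ± 23.8 to 223 ± 48.0 (SD, n = 3; limma, log2 change -0.98, SE 0.16, adjusted p = 0.00163). The lipid transfer protein gene AT4G12490 rose from 89.7 ± 2.61 to 298 ± 48.6 (SD, n = 3; limma, log2 change 1.72, SE 0.28, adjusted p = 0.00221). The probe set 254805_at, which has no gene, rose (limma, log2 change 0.90, SE 0.20, adjusted p = 0.0177), with adjusted p of 0.0574, 0.0608 and 0.0545 without replicate 3 at 6 h, replicate 2 at 12 h or replicate 3 at 12 h, and of 0.0879 without the intensity trend.

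Between 12 and 24 h without induction 2 members rose and 2 fell, against 0.484% and 0.963% of all probe sets. The peroxidase gene AT5G17820 rose from 151 ± 26.7 to 254 ± 17.1 (SD, n = 3; limma, log2 change 0.77, SE 0.12, adjusted p = 0.00189). Another peroxidase gene, AT2G18980, rose as well (limma, log2 change 0.53, SE 0.12, adjusted p = 0.0355). The aspartyl protease gene AT5G48430 (limma, log2 change -0.96, SE 0.23, adjusted p = 0.0393) and 251895_at (limma, log2 change -0.64, SE 0.15, adjusted p = 0.0409) fell. Of the 4 calls, 1 was left without replicate 1 or 2 of the 12 h group or replicate 1 or 3 of the 24 h group, and 2 without replicate 2 of the 24 h group. The call of AT5G48430 was lost without any 1 of the 6 arrays (adjusted p 0.0949 to 0.143). That of AT2G18980 was lost without any 1 of them but replicate 3 at 12 h (0.0603 to 0.227), and that of 251895_at without any 1 but replicate 2 at 24 h (0.104 to 0.196).

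Over the whole span from 6 to 24 h without induction 14 members rose and 7 fell, against 4.98% and 4.88% of all probe sets. The median change of the members was 0.30 on the log2 scale and that of all probe sets 0.05. Peroxidase genes were among those that rose: AT5G17820 went from 121 ± 14.1 to 254 ± 17.1 (SD, n = 3; limma, log2 change 1.07, SE 0.12, adjusted p = 1.16e-05). AT2G18980 rose too (limma, log2 change 0.79, SE 0.12, adjusted p = 0.000297), as did 254820_s_at, which matches several genes (limma, log2 change 1.22, SE 0.22, adjusted p = 0.000946). Those that fell included AT3G13610 (limma, log2 change -1.32, SE 0.16, adjusted p = 1.54e-05), AT5G48430 (limma, log2 change -1.32, SE 0.23, adjusted p = 0.000786) and 251895_at (limma, log2 change -1.13, SE 0.15, adjusted p = 8.1e-05). A peroxidase gene, AT5G39580, was also among those that fell, with a log2 change of -1.09, so the family did not move in 1 direction. It was named after its values were seen. Of the 21 calls 11 were left without replicate 2 of the not induced 6 h group, and 12 without replicate 2 of the not induced 24 h group. The hybridisation controls, which were higher on the not induced 6 h arrays, move with this contrast: with their mean as a covariate, an alternative chosen after seeing the data, 12 of the members were called.

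In induced plants most members called in the contrasts from 6 h fell, while between 12 and 24 h nearly as many rose as fell. Between 6 and 12 h 20 fell and 1 rose, against 1.07% and 0.827% of all probe sets, and the median change of the members was -0.48, against 0.03 over all probe sets. Low induced signals at these times helped to choose the members, so this excess is not read as a result. AT3G13610 had the lowest adjusted p, going from 196 ± 41.0 to 61.4 ± 12.9 (SD, n = 3; limma, log2 change -1.68, SE 0.16, adjusted p = 1.24e-05). The aspartyl protease gene AT5G48430 fell (limma, log2 change -1.94, SE 0.23, adjusted p = 0.000188), and so did the PAR1 family gene AT3G54040 (limma, log2 change -1.20, SE 0.16, adjusted p = 0.000549). The probe sets 264567_s_at, 249152_s_at and 251895_at, which have no gene here, fell, with changes of -1.44, -1.48 and -1.27 on the log2 scale (limma, adjusted p = 4.85e-05, 6.73e-05 and 0.000246). Without replicate 2 of the induced 12 h group 12 members were called in place of 21.

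Between 12 and 24 h in induced plants 6 members fell and 5 rose, against 1.94% and 1.49% of all probe sets. AT5G48430 fell again (limma, log2 change -1.51, SE 0.23, adjusted p = 0.000584), as did 266336_at (limma, log2 change -1.37, SE 0.22, adjusted p = 0.00106) and 266884_at (limma, log2 change -0.65, SE 0.14, adjusted p = 0.00982), both with no gene. The call of 266884_at was lost without replicate 1 or 3 at 12 h or replicate 3 at 24 h (adjusted p = 0.0589, 0.0622 and 0.0811) and without the intensity trend (0.0566). The late embryogenesis abundant-like gene AT1G54890 fell too (limma, log2 change -3.24, SE 0.64, adjusted p = 0.00536), but all of its 24 h arrays were at background, and with signals raised to the background level its change was -0.49 (adjusted p = 0.617). The peroxidase gene AT1G30870 rose from 22.7 ± 5.48 to 46.5 ± 9.83 (SD, n = 3; limma, log2 change 1.04, SE 0.21, adjusted p = 0.00563), and 264567_s_at rose as well (limma, log2 change 0.84, SE 0.15, adjusted p = 0.00287). With only the compared groups in the fit 3 of the 11 calls were left, that of AT1G30870 among them (adjusted p = 0.0453). The calls of AT5G48430, 266336_at, 264567_s_at, 266884_at and AT1G54890 were lost there (adjusted p = 0.0892, 0.0755, 0.0727, 0.0654 and 0.1).

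From 6 to 24 h in induced plants 28 members fell and 2 rose, against 3.94% and 3.87% of all probe sets, with a median change of -0.47 against 0.02 over all. Nothing is read from this excess either, since low induced signals at these times helped to choose the members. AT5G48430 fell from 61.6 ± 13.3 to 5.63 ± 1.21 (SD, n = 3; limma, log2 change -3.45, SE 0.23, adjusted p = 2.34e-08). AT3G13610 (limma, log2 change -1.89, SE 0.16, adjusted p = 2.33e-07) and AT3G54040 (limma, log2 change -1.67, SE 0.16, adjusted p = 1.23e-06) fell as well. The probe sets 251895_at, 249152_s_at and 266884_at fell, with changes of -1.64, -1.63 and -1.34 on the log2 scale (limma, adjusted p = 9.6e-07, 1.62e-06 and 2.74e-06). The jacalin lectin genes AT1G52060 (limma, log2 change -2.30, SE 0.45, adjusted p = 0.00245) and AT1G52070 (limma, log2 change -2.10, SE 0.44, adjusted p = 0.00398) fell as well. Both lectin genes were named after their values were seen, as were the members that rose, which were the peroxidase gene AT5G17820 (limma, log2 change 0.68, SE 0.12, adjusted p = 0.00134) and the extensin family gene AT2G47540 (limma, log2 change 0.75, SE 0.23, adjusted p = 0.0463). The call of AT2G47540 was lost without replicate 2 at 6 h or replicate 2 or 3 at 24 h (adjusted p = 0.213, 0.189 and 0.115), and under 5 other settings (0.0504 to 0.238).

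Set side by side, the 6 to 24 h changes of 39 members were above 0 without induction and below 0 with it, against 21.7% of all probe sets. Both changes were below 0 for 32 members and above 0 for 26, against 26.4% and 33.6% of all, and 3 were below 0 without induction and above 0 with it, against 18.3%. In both conditions 6 members fell and 2 rose, against 1.85% and 1.14% of all probe sets. Nothing is read from these shares, since the induction differences at 6 and 24 h chose the members. AT3G01190, a peroxidase gene, and 264567_s_at rose without induction and fell with it, as did 0.0308% of all probe sets: AT3G01190 rose by 1.16 and fell by 1.12 on the log2 scale (limma, adjusted p = 0.00741 and 0.0106), and 264567_s_at rose by 0.58 and fell by 0.61 (limma, adjusted p = 0.0183 and 0.0154). Both were named after their values were seen. Without replicate 3 of the induced 24 h group the change of AT3G01190 with induction was -0.73 (adjusted p = 0.0737). With the hybridisation controls as a covariate its change without induction was 1.07 (adjusted p = 0.0892), and that of 264567_s_at was 0.55 (adjusted p = 0.13). For 264567_s_at the rise was lost without replicate 2 at 6 h or replicate 2 or 3 at 24 h (adjusted p = 0.0854, 0.096 and 0.0839), and the fall without induced replicate 2 at 6 h or replicate 1 or 3 at 24 h (adjusted p = 0.105, 0.0546 and 0.0878) or with only the groups compared in the fit (0.123). The difference between the 2 changes equals the difference between the induction contrasts at 24 and 6 h, which chose the members, and was not tested.

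**Figure D5:**
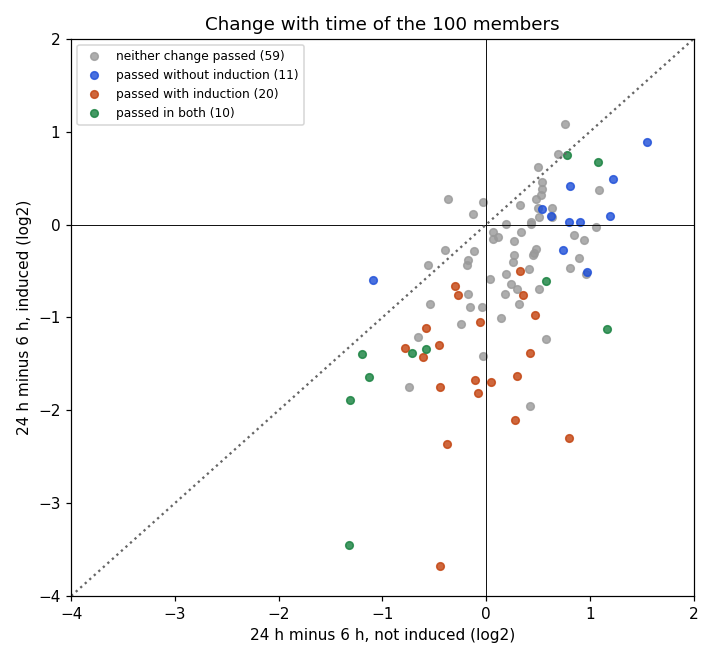
Log2 change from 6 to 24 h of the 100 members without induction (horizontal axis) and with induction (vertical axis). Colours give where the change passed limma at an adjusted p under 0.05: neither for 59 members, without induction for 11, with induction for 20 and both for 10; the dotted line marks equal changes.

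Genes from 13 lists of root, leaf and stress functions were set beside the members. Of 166 entries 14 had a probe set with that gene alone, of which 1, AT3G13610, was a member. Over all probe sets 0.967% passed the induction test at 6 h, 4.84% at 12 h and 8.33% at 24 h. Of the 13 listed genes that are no members 2 fell at 6 h, 2 at 12 h and 2 at 24 h, each time the expansin genes EXPA7 and EXPA18, which act in root hair outgrowth and meet the rule but are left out by it. EXPA7 differed by -1.52, -1.51 and -2.01 on the log2 scale (limma, adjusted p = 0.0316, 0.00983 and 0.000507) and EXPA18 by -0.87, -1.18 and -1.60 (limma, adjusted p = 0.0477, 0.00133 and 3.18e-05). These tests reuse the contrast and values of the rule, which both genes meet, so nothing is read from their passing. The 6 h calls of EXPA7 and EXPA18 were lost without any 1 of the not induced arrays or without replicate 1 or 3 of the induced group. With only the compared groups in the fit they were lost too (limma, adjusted p = 0.125 and 0.197). Across all settings tried, the 6 h call was lost in 8 of 15 for EXPA7 and in 10 of 16 for EXPA18. The 12 h call of EXPA7 was lost without induced replicate 2 (adjusted p = 0.0752) and with only the compared groups (0.0692). SCN1, a regulator of where root hairs emerge, rose at 12 h from 241 ± 15.6 to 357 ± 34.2 (SD, n = 3; limma, log2 difference 0.57, SE 0.12, adjusted p = 0.00506), and had differences of -0.09 and 0.30 at 6 and 24 h (adjusted p = 0.799 and 0.12). TRY, a small MYB-like regulator of trichome and root hair patterning, did not pass at any time. Of the root hair list 3 of 31 genes were matched to a probe set, too few to describe that cell type. Since 38.4% of probe sets have no gene in the annotation, unmatched genes are not shown to be absent from the array.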

How the data were processed

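Whole seedlings were profiled on 18 ATH1 arrays, 3 in each of 6 groups set by the labels. The authors deposited linear MAS5 signal intensity per probe set, and the submitters' processing notes name MAS5 and GCOS. For both, no version is given in the sources used here, nor is the target of the scaling. Each array's mean without its top and bottom 2% came to 100.0, so the authors had scaled the arrays alike. The number of arrays limits the precision. The 64 control probe sets stayed out of the tests, which covered the other 22746 at any signal. Genes came from the platform's annotation table and RefSeq's gene table: 13513 probe sets (59.4%) had 1 gene, 503 several and 8730 none. Coordinates are not printed, since the files name no genome build, and no sequences were used here, so promoter motifs were not searched.

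A linear model with a mean for each group was fitted to the log2 signals of all arrays in limma 3.58.1, run in R 4.3.3 with statmod 1.5.0. Its moderated variances followed an intensity trend (12 residual degrees of freedom, 7.69 prior). Tests were two-sided, with Benjamini-Hochberg adjustment within each contrast over all probe sets and a threshold of 0.05. The fit was tested on simulated data. Counts and differences were computed in Python 3.11.15 (pandas 2.3.3, numpy 2.4.6) and plotted in matplotlib 3.10.9. A signal at or under the background level of its array counted as background. Where all 3 induced arrays were at background, a bound compares the mean log2 signal without induction with the mean, over the induced arrays, of the log2 background level.

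The members and the lists were chosen with earlier results of these data known. Signals on every array are given for the 14 members with 1 gene and the lowest mean difference and for members of the lists. For members without a gene, the 2 lowest were described. For each contrast between times up to 6 members with the lowest adjusted p were named, and of the lists each root hair gene and up to 4 genes past the threshold. Alternatives were other scalings, offsets, filters, moderation, array weights, a replicate block, fits of only the groups compared and leaving out arrays. No array was dropped in the main fit.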

Additional observations from a re-analysis of the deposited data

Results flagged for a closer look

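The peroxidase gene AT3G01190 moved in opposite directions with time in the 2 conditions, with every array of the later time on one side of every array of the earlier time. Its signal was higher at 24 h than at 6 h on all arrays without induction, a log2 change of 1.16, and lower at 24 h than at 6 h on all induced arrays, a log2 change of -1.12. The change in induced plants was thus -2.29 relative to that without induction. This difference was not tested, because the induction differences at 6 and 24 h chose the members. Its rise missed the threshold with the hybridisation controls as a covariate (limma, change 1.07, adjusted p = 0.0892), and its fall without replicate 3 of the induced 24 h group (limma, change -0.73, adjusted p = 0.0737). Among the 100 members 6 had such fully separated opposite moves, against 0.681% of all 22746 probe sets and 0.874% of the 13279 with the signal minimum. Nothing is read from the excess for the same reason.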

How the results depend on the processing

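The rule found 100 members, and 117 under quantile normalization (98 of them members), 127 with 1 median for all arrays (100 of them members), 97 with an offset before log2, 141 with a difference of -0.5 or lower, 141 with a mean signal of at least 10 and 100 with signals raised to background. It found 66 with a difference of -0.8 or lower and 49 with a mean signal of at least 50, fewer by construction. Leaving out arrays gave 92 to 115. Members changed without induction from 12 to 24 h numbered 4, and 1 without the intensity trend, 11 with array weights, 1 with the replicate block and 9 with only the groups compared. From 6 to 24 h without induction 21 changed, and 12 with the hybridisation controls as a covariate, an alternative chosen after seeing the data. In induced plants 21 changed from 6 to 12 h, and 11 without the trend; 11 changed from 12 to 24 h, and 7 without the trend, 3 with only the groups compared and 7 with the covariate. The cause of these moves was not tested. Leaving out 1 array gave 2 to 3, 1 to 4 and 11 to 24 members without induction from 6 to 12, 12 to 24 and 6 to 24 h, and 12 to 20, 8 to 15 and 24 to 32 in induced plants. Listed genes called numbered 0 to 2 at 6 h, 2 to 3 at 12 h and 2 to 2 at 24 h.

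Samples with the same replicate number showed no clear shared deviation. Over 45 such pairs the correlation of deviations ran from -0.23 to 0.20, with a median of -0.018 and 11 over 0.1. Over 90 pairs with different numbers it ran from -0.24 to 0.24, with a median of -0.0038 and 18 over 0.1. The numbers were therefore not taken to pair samples. The replicate block changed 7 of 55 results, among them the listed genes called at 6 h, 2 without it and 1 with it. For single named genes all 732 values under the alternatives kept their direction, and 78 of them missed the threshold. Dim signals limit the folds, since at 24 h 23 members had an induced array at background. The promoter motif search was not run.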
